A study of Mus musculus with 6 samples.

Results

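The 10 genes described here are 5 products of the choroid plexus epithelium (Ttr, Clic6, Kcne2, Folr1 and Kcnj13) and 5 transcription factors of the roof plate (Otx2, Lmx1a, Lmx1b, Msx1 and Msx2), chosen by gene symbol. All 10 were found among the 24444 gene symbols of the table. The study sequenced poly(A) RNA of mouse embryonic telencephalon (E12.5, C57BL/6J), the part of the forebrain that forms the cortex and basal ganglia. It compared 3 libraries labelled Wild-type with 3 labelled Arl13b-/-, here called by genotype and replicate number, and no agent was given to either group. The product of Arl13b is a GTPase found in primary cilia, and the series asks how cilia bear on axonal tracts. The labels neither name the Arl13b allele nor tie each library to an embryo of its own, so p-values measure only the spread between libraries, which may be technical in part.

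The roof plate is the strip of cells along the dorsal midline of the neural tube, and it secretes BMP and Wnt signals that pattern the tissue beside it. In the telencephalon the dorsal midline forms the cortical hem and the choroid plexus, the folded epithelium that makes cerebrospinal fluid. Primary cilia are needed for Hedgehog signalling and for processing of Gli3, a repressor with a known part in setting up the dorsal midline. Otx2, the Lmx1 and the Msx factors are also made outside the roof plate, in midbrain, mesenchyme or surface ectoderm, so in whole tissue their RNA has several sources. Fewer cells of a type and less RNA per cell cannot be told apart in these bulk samples.

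Values below are normalized counts, obtained by undoing the authors' variance-stabilising transformation, and differences are between means of variance-stabilised values (log2 scale, Arl13b-/- minus wild-type). The estimated depth was between 27600000 and 51700000 reads per library. Arl13b itself had 661, 553 and 560 normalized counts in the wild-type libraries 1 to 3 and 492, 532 and 564 in Arl13b-/- 1 to 3, a gene-level value that does not check the genotype labels. Wild-type 1 and Arl13b-/- 2 stood apart from the other 4 libraries: Mki67, a marker of dividing cells, had 3596 and 102 normalized counts in them against 13025 to 16521 elsewhere, and Stmn2, a gene of postmitotic neurons, had 33432 and 124879 against 12869 to 14020. Arl13b-/- 3 went against its labelled tissue: a list of 10 telencephalon genes had a mean of −2.42 in it relative to wild-type 2 and 3 (log2 scale), against −1.18 to 0.19 in the other 5 libraries, and a summed count of 4714 against 16451 to 47461. Differences of the members are therefore given with all 6 libraries, as a range for the roof plate factors. They are also given with 4, wild-type 2 and 3 against Arl13b-/- 1 and 3. Results for the gene lists are for these 4 unless stated. Counts of list genes that did not overlap were not repeated without Arl13b-/- 3. In the 4 libraries both wild-type libraries carry Y-linked transcripts and neither Arl13b-/- library does (Ddx3y 1093 and 1258 against 0 and 1.23), so sex and genotype cannot be told apart there.

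The bases upstream of 3 members are shown because these members split into the behaviours described below: Kcne2 and Kcnj13 were lower in all Arl13b-/- libraries, and Otx2 was not. RefSeq's promoter table (GRCm38.p6) held 7 of the 10 members, with 11 start sites; Ttr, Clic6 and Folr1 were not among them. Each sequence is the 250 bases before a start site, 5′ to 3′ on the gene's strand, and none of these windows overlaps an exon of the GENCODE annotation of the same build. Capitals mark TAATCC (reverse strand GGATTA), a core bound by Otx-type homeodomains, TAATTA, a core of other homeodomains, and TATAAA (reverse strand TTTATA), the TATA box, searched on both strands. The last of these was chosen after the sequences were seen, and no 2 different motifs overlapped in these windows.
Kcne2, first of 2 start sites, chr16:92292139-92292388, plus strand: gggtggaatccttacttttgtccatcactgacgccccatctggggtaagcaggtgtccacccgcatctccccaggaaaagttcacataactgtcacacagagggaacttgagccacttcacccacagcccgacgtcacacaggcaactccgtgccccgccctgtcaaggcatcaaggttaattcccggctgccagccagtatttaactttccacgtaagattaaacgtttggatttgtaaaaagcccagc
Kcnj13, chr1:87394730-87394979, minus strand: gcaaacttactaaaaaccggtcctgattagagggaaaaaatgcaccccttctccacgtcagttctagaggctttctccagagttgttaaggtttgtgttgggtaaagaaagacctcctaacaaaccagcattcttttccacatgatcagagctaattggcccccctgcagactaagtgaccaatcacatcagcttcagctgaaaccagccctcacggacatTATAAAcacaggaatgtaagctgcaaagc
Otx2, first of 4 start sites, chr14:48667645-48667894, minus strand: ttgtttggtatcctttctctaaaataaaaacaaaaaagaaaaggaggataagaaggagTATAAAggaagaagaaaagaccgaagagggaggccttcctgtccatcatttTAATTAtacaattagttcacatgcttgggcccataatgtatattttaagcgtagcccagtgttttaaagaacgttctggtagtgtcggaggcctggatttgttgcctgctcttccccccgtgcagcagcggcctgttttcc

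In Kcnj13 the TATA box begins 29 bases before the start, and in Otx2 the TAATTA begins 141 bases before it. The Kcne2 window holds none of the 3 motifs. Over all 11 start sites of the 7 members, TAATCC was found before 1 (a later start of Otx2) and TAATTA before 3, 2 of Otx2 and 1 of Msx2. Of 32851 promoter windows of the same length, 6.25% hold TAATCC, 4.84% TAATTA and 12.4% TATAAA, so a match is a description of these letters and no more.

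All 5 choroid plexus genes were lower in each Arl13b-/- library than in each wild-type library. Groups that separate over all 6 libraries also separate in any subset of them, so the subsets add no check of this count. Among all 14249 genes tested, 3.59% did not overlap and were lower in Arl13b-/- in the 6 libraries (4.67% were higher and 8.26% either), 18.1% in the 4 (47.5% in either direction), 6.6% without Arl13b-/- 3 and 29.6% with Arl13b-/- 1 alone. Each of the 5 reached the smallest p that 3 against 3 allows (exact two-sided permutation p = 0.1). Any gene whose groups do not overlap reaches it, so it adds no further test. Kcnj13 is not among the 14249 genes.

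**Figure D1:**
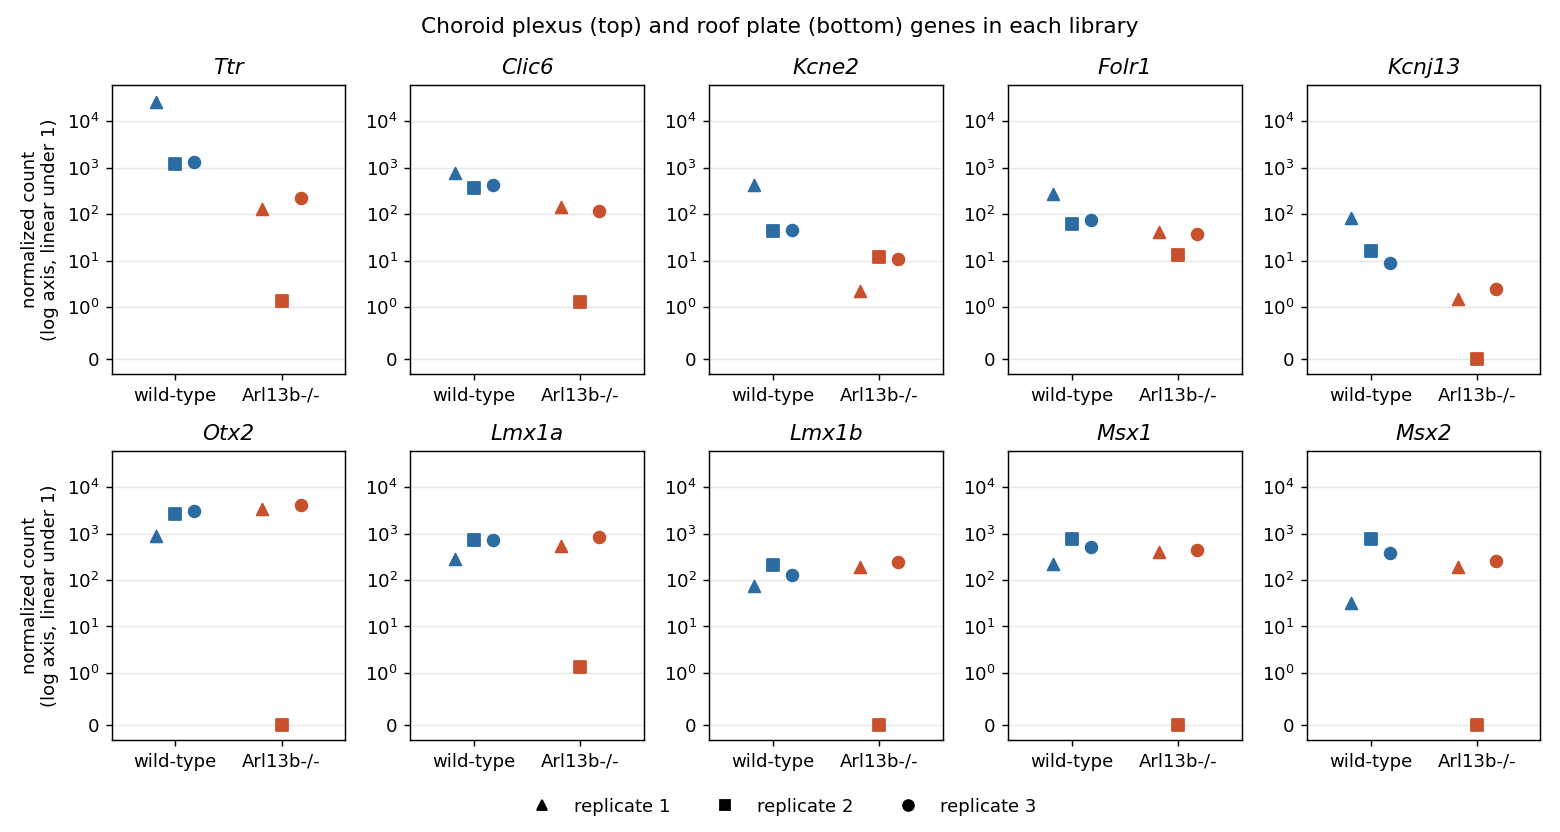
Normalized count of each of the 10 genes (vertical axis, logarithmic above 1 and linear below) in the 3 wild-type (blue) and 3 Arl13b-/- (orange) libraries, with the marker shape giving the replicate number. In the upper row every Arl13b-/- point lies below every wild-type point, and in the lower row wild-type 1 (triangle) lies below Arl13b-/- 1 and 3, with Arl13b-/- 2 (square) at or near 0.

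Ttr, which encodes transthyretin, the carrier of thyroid hormone and retinol-binding protein that the choroid plexus secretes into cerebrospinal fluid, had 25702, 1211 and 1322 normalized counts in the wild-type libraries 1 to 3. It had 126, 1.32 and 227 in Arl13b-/- 1 to 3, the middle value being about 1 read. The groups do not overlap, and wild-type 1 was 20.3 times the mean of wild-type 2 and 3. With the 4 libraries Ttr fell by 2.50 ± 0.204 (SE, n = 2 per group) on the log2 scale (limma adjusted p = 0.0323), to 0.139 times the wild-type mean count. Over all 6 libraries the difference was −4.75 ± 1.39 (SE, n = 3 per group) and did not pass (limma adjusted p = 0.990).

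Clic6, a chloride channel protein abundant in choroid plexus, had 777, 362 and 431 normalized counts in the wild-type libraries 1 to 3. It had 139, 1.31 and 117 in Arl13b-/- 1 to 3. The values again separate by group, and Arl13b-/- 1 and 3 were closer to each other than for Ttr. Clic6 fell in the 4 libraries by 1.27 ± 0.116 (SE; limma adjusted p = 0.0354), to 0.323 times the wild-type mean count, and over all 6 the difference was −2.29 ± 0.680 (limma adjusted p = 0.990).

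Ttr and Clic6 were the only 2 of 9 members tested that passed in the 4 libraries, where 0.182% of all genes passed as lower and 0.253% in either direction. Both calls ended without the mean-variance trend (limma adjusted p = 0.0756 for Ttr and 0.0724 for Clic6) and without wild-type 2 or wild-type 3 (adjusted p between 0.125 and 0.166 for the pair), and robust moderation ended that of Ttr (0.0652). Without Arl13b-/- 3, the library low in telencephalon genes, the differences were −2.82 for Ttr and −1.19 for Clic6. That fit sets 1 Arl13b-/- library against 2 wild-type, so the spread within Arl13b-/- is not measured.

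Kcne2, an accessory subunit of potassium channels at the apical face of the choroid plexus, had 430, 43.5 and 46.2 normalized counts in the wild-type libraries 1 to 3. It had 2.18, 11.81 and 11.03 in Arl13b-/- 1 to 3. The lowest value was that of Arl13b-/- 1 and rests on about 3 reads, and Arl13b-/- 2, lowest for Ttr and Clic6, was level with Arl13b-/- 3. Over all 6 libraries the difference was −1.65 ± 0.664 (SE; limma adjusted p = 0.990). In the 4 libraries it was −0.98 ± 0.169 (SE) and did not pass (limma adjusted p = 0.109). The variance-stabilised scale understates the change of a gene this low: the Arl13b-/- mean count was 0.147 times that of wild-type, against 0.139 times for Ttr, and on inverted counts the difference was −2.89, against −2.90 for Ttr. On the variance-stabilised scale the difference was −0.76 without Arl13b-/- 1 and −1.20 without Arl13b-/- 3, each with 1 Arl13b-/- library against 2 wild-type.

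Folr1, the folate receptor that carries folate across the choroid plexus, had 272, 61.3 and 73.1 normalized counts in the wild-type libraries 1 to 3. It had 40.7, 12.9 and 37.8 in Arl13b-/- 1 to 3. The gap between the groups was the smallest of the 5, with an Arl13b-/- mean 0.584 times that of wild-type in the 4 libraries. The difference there was −0.40 ± 0.108 (SE; limma adjusted p = 0.209), and over all 6 it was −1.07 ± 0.459 (limma adjusted p = 0.990).

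Kcnj13, an inward rectifier potassium channel of choroid plexus and retinal pigment epithelium, had 83.1, 15.9 and 8.67 normalized counts in the wild-type libraries 1 to 3. It had 1.46 and 2.47 in Arl13b-/- 1 and 3, about 2 and 4 reads, and was listed at 0 in Arl13b-/- 2. It is the 1 member under the filter on low values. Without the filter its difference was −0.49 ± 0.125 (SE) in the 4 libraries (limma adjusted p = 0.206). Over all 6 it was −1.01 ± 0.362 (limma adjusted p = 0.986). At this depth its size in the Arl13b-/- libraries cannot be told closely.

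The 5 roof plate factors did not separate the groups over the 6 libraries. Arl13b-/- 2 had 0 normalized counts for Otx2, Lmx1b, Msx1 and Msx2 and about 1 read of Lmx1a, whereas wild-type 1 was the lowest of the other 5 libraries for each of the 5. The 6-library differences, between −0.46 for Lmx1b and −1.35 for Msx1, had standard errors between 0.893 and 1.94, and none passed (limma adjusted p = 0.990 for each). Without Arl13b-/- 2 the differences of Otx2, Lmx1a and Lmx1b turned positive (0.93, 0.32 and 0.55), and those of Msx1 and Msx2 shrank to −0.08 and −0.16.

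**Figure D2:**
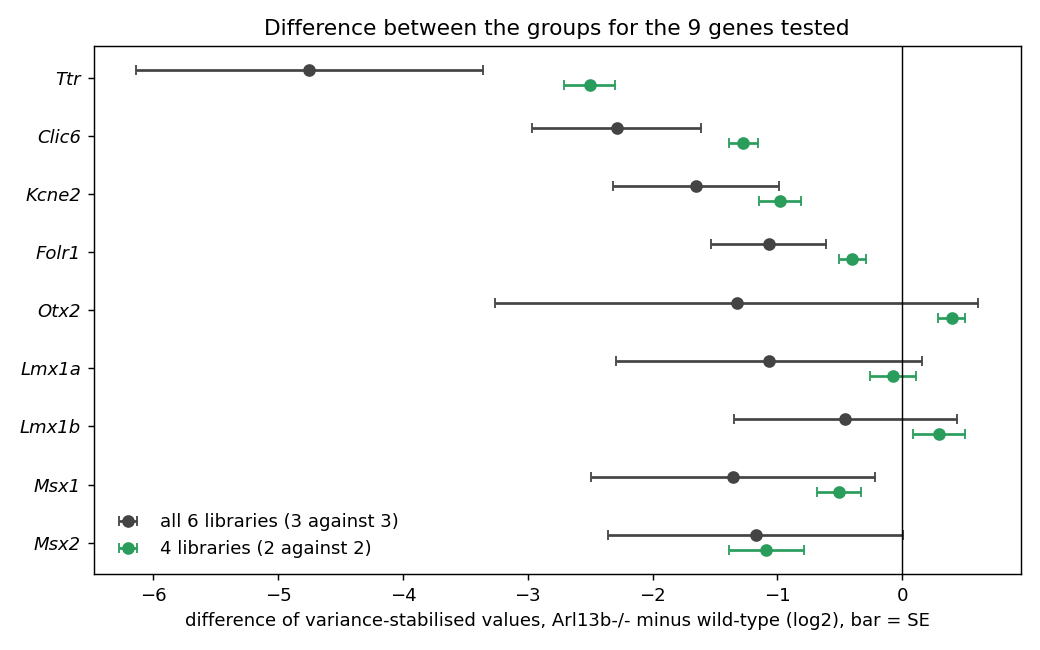
Difference of mean variance-stabilised values, Arl13b-/- minus wild-type (horizontal axis, log2 scale, bars are standard errors), for the 9 genes tested, over all 6 libraries (grey) and over 4 (green). In the 4 libraries Ttr (−2.50) and Clic6 (−1.27) lie farthest to the left, while Otx2 (0.40) and Lmx1b (0.30) lie to the right of 0.

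Otx2, a head and forebrain homeodomain factor required for choroid plexus development, had 887, 2600 and 3028 normalized counts in the wild-type libraries 1 to 3. It had 3411 and 4051 in Arl13b-/- 1 and 3. Both Arl13b-/- values were above those of wild-type 2 and 3, as for 29.3% of all genes, and the difference of 0.40 ± 0.107 (SE) did not pass (limma adjusted p = 0.210). The difference was 0.52 without Arl13b-/- 1, that is, with Arl13b-/- 3 as the only library of its group.

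Lmx1a, a LIM homeodomain factor that specifies the roof plate and the cortical hem, had 287, 728 and 731 normalized counts in the wild-type libraries 1 to 3. It had 551 and 860 in Arl13b-/- 1 and 3, one below and one above the wild-type pair. The 4-library difference was −0.07 ± 0.187 (SE; limma adjusted p = 0.893), and its sign depended on the library left out, with 0.22 without Arl13b-/- 1 and −0.37 without Arl13b-/- 3.

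Lmx1b, its paralog, which acts in the midbrain and hindbrain roof plate and in midbrain dopamine neurons, had 75.1, 213 and 125 normalized counts in the wild-type libraries 1 to 3. It had 189 and 246 in Arl13b-/- 1 and 3. The groups overlap, and the difference was 0.30 ± 0.209 (SE; limma adjusted p = 0.574). It was 0.58 without wild-type 2 and 0.02 without wild-type 3. How reads shared by a pair of paralogs were assigned is not given in the sources used here, for the Lmx1 or the Msx pair.

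Msx1, a homeodomain factor induced by BMP signals in the dorsal midline, had 224, 763 and 512 normalized counts in the wild-type libraries 1 to 3. It had 399 and 447 in Arl13b-/- 1 and 3, below both wild-type libraries of the 4. The difference was −0.50 ± 0.176 (SE; limma adjusted p = 0.297), −0.24 without wild-type 2 and −0.76 without wild-type 3.

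Msx2, a second BMP-induced factor of the same family, had 32.7, 767 and 380 normalized counts in the wild-type libraries 1 to 3. It had 192 and 256 in Arl13b-/- 1 and 3. The 4-library difference of −1.09 ± 0.299 (SE) was the largest of the roof plate factors and did not pass (limma adjusted p = 0.215), and the 2 wild-type libraries differed by more than the 2 Arl13b-/- libraries did. Leaving out wild-type 2 took it to −0.64 and leaving out wild-type 3 to −1.54. The wild-type library with more Msx2 was also the one with more Col1a1, a collagen of mesenchyme (24398 normalized counts against 8670). An order shared by 2 libraries is common, and a part of mesenchyme in the spread of Msx2 was not tested.

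Over the 9 members tested, 2 passed in the 4 libraries, both of the choroid plexus and both lower. The median difference there was −1.13 for the 4 choroid plexus genes tested and −0.07 for the 5 roof plate factors, beside 0.02 for all genes. Among the marker lists described below, it was −1.86 for surface ectoderm, −1.41 for telencephalon and 0.67 for midbrain and isthmus. Across the 6 libraries 0 members passed in limma, and Ttr, Clic6 and Kcne2 had an unadjusted p under 0.05, as 1.14% of all genes did and 1.03% in the lower direction. With the 4 libraries 7 members did, Otx2 as higher and the rest as lower, beside 14.4% of all genes, 6.33% in the lower direction. No gene passed over the 6 libraries (0% of all genes). Folr1 and Kcne2 passed the filter on low values used here but not a stricter one, and Kcnj13 passed neither.

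Across the 6 libraries, Ttr followed the other choroid plexus genes tested more closely than the roof plate factors. Pearson's r of variance-stabilised values with Ttr was 0.98 for Folr1, 0.93 for Clic6 and 0.91 for Kcne2, but between 0.21 (Msx2) and 0.47 (Msx1) for the roof plate factors. Lmx1a had r = 0.99 with Otx2, 0.98 with Lmx1b and Msx1 and 0.89 with Msx2. Among the choroid plexus genes, its r was 0.70 with Clic6, 0.42 with Ttr, 0.33 with Folr1 and 0.03 with Kcne2, so the 2 sets were not wholly apart. These are descriptions over 6 points that share the 2 outlying libraries. The genes with the pattern most like Ttr were Slc15a2, Plbd1, Raph1, Pygb and Cpm (r between 0.987 and 0.997). Slc15a2, a peptide transporter of choroid plexus and glia, had 333, 144 and 135 normalized counts in the wild-type libraries 1 to 3 and 53.4, 23.4 and 70.1 in Arl13b-/- 1 to 3. It was chosen for its likeness to Ttr in these libraries, so its separation by group adds no further test. The genes most like Lmx1a were Dcc, Gpc6, Cep290, Zfp526 and Rassf4, with r between 0.9989 and 0.9993, and in them Arl13b-/- 2 was also the lowest library and wild-type 1 the next.

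Kcne2 and Clic6 lie near each other on mouse chromosome 16, with 5 protein-coding genes between them in the RefSeq gene table, of which 3 were measured. Rcan1, next to Clic6, had 2428, 1574 and 1560 normalized counts in the wild-type libraries 1 to 3 and 1788, 4140 and 1531 in Arl13b-/- 1 to 3. Its 4-library difference was 0.08 ± 0.0816 (SE; limma adjusted p = 0.726), and that of Smim11, next to Kcne2, was 0.11 ± 0.0917 (0.644). Kcne1, the third, had at most 4.30 normalized counts. Neither Rcan1 nor Smim11 separated the groups in the 6 libraries, whereas Kcne2 and Clic6 did.

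Other genes of the choroid plexus epithelium were divided. Of a list of 32, 26 were tested and 0 passed in either comparison, with a median difference of −0.18 in the 4 libraries. This median was −0.08 without wild-type 2 and −0.12 without Arl13b-/- 3. In the 6 libraries 5 of the 26 did not overlap and were lower (3.59% of all genes) and 0 were higher (4.67%). In the 4 libraries 13 of the 26 did not overlap and were lower (18.1% of all genes) and 5 were higher (29.3% of all genes). Col8a1, a collagen gene, had 395, 474 and 397 normalized counts in the wild-type libraries 1 to 3 and 177, 229 and 105 in Arl13b-/- 1 to 3. Its difference was −1.32 ± 0.192 (SE; limma adjusted p = 0.0803), the smallest p of the list.

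Cldn1, a tight junction protein (−0.65 ± 0.0953, SE), Trpm3, a cation channel (−0.91 ± 0.144), and Htr2c, the serotonin receptor of choroid plexus (−0.69 ± 0.143), came next, with limma adjusted p between 0.0818 and 0.143. Trpm3 and Htr2c did not follow Ttr in Arl13b-/- 2, where they had 1779 and 241 normalized counts. Aqp1, the water channel of the mature epithelium, had 604, 255 and 177 normalized counts in the wild-type libraries 1 to 3 and 262, 0 and 267 in Arl13b-/- 1 to 3. As for the 5 members, wild-type 1 stood highest over the list as a whole, with a mean of 1.05 (log2 scale) above wild-type 2 and 3. Tmem72, for example, had 89.5 normalized counts there and at most 1.32 elsewhere, and Slc13a4, an anion transporter, had 365 against at most 11.9.

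**Figure D3:**
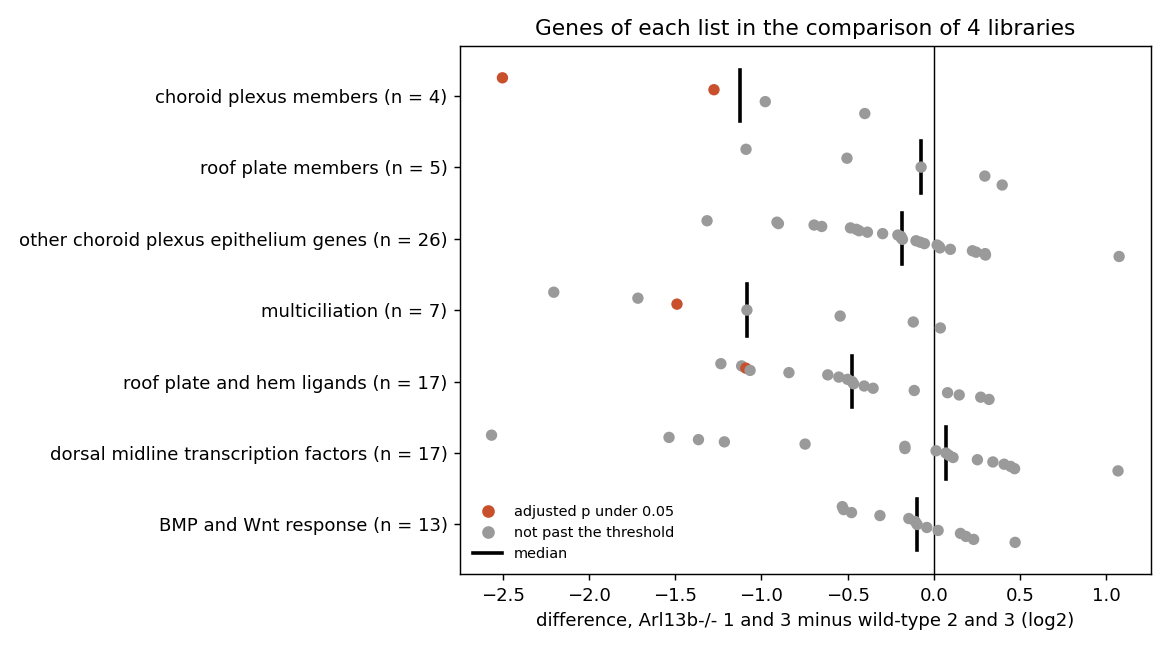
Difference in the comparison of 4 libraries (horizontal axis, log2 scale) for each gene tested, by list, with a black bar at the list's median and orange points past an adjusted p of 0.05. Ttr, Clic6, Ccno and Wnt2b are the 4 orange points, and the medians run from −1.13 for the choroid plexus members to 0.07 for the dorsal midline transcription factors.

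Genes of the multiciliation programme, which gives choroid plexus cells their tufts of cilia and is also active in Cajal-Retzius cells of the hem, were mostly lower. Of 7 genes, 6 did not overlap and were lower in the 4 libraries (18.1% of all genes), 1 passed (0.182% of all genes, as lower) and the median was −1.08. This median was −1.24 without Arl13b-/- 1 and −0.93 without Arl13b-/- 3. In the 6 libraries 3 of the 7 did not overlap and were lower (3.59% of all genes) and 0 were higher (4.67%). Ccno, a cyclin required for making basal bodies, had 40.02, 154 and 168 normalized counts in the wild-type libraries 1 to 3 and 34.1, 19.7 and 18.4 in Arl13b-/- 1 to 3. It fell by 1.49 ± 0.144 (SE; limma adjusted p = 0.0437), a call that ended without either wild-type library (0.160 and 0.208), without the trend (0.0760) and on inverted counts (0.0659). Gmnc (−1.72 ± 0.212, SE) and Mcidas (−1.08 ± 0.144), regulators at the head of the programme, and Trp73 (−2.20 ± 0.368) did not pass (limma adjusted p between 0.0676 and 0.103). Unlike the choroid plexus products, Gmnc, Mcidas and Ccno were lower in wild-type 1 than in wild-type 2 and 3.

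Secreted signals of the roof plate and hem were also mostly lower in the 4 libraries. Of 18, 17 were tested, 12 did not overlap and were lower (18.1% of all genes), 0 did not overlap and were higher (29.3%), 1 passed (0.182%, as lower) and the median was −0.47. Differences above 0 were found for 4 of the 17: Gdf7 (0.32), Gdf10 (0.27), Wnt5a (0.15) and Wnt1 (0.08). The groups overlapped for each of these 4. Wnt2b, a ligand of the hem, had 180, 293 and 306 normalized counts in the wild-type libraries 1 to 3 and 103, 73.3 and 116 in Arl13b-/- 1 to 3. It fell by 1.09 ± 0.0919 (SE; limma adjusted p = 0.0323), and without either wild-type library this call ended (0.125 and 0.167), as it did without the trend (0.05004, just above the threshold).

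Rspo1, an enhancer of Wnt signalling (−0.84 ± 0.0946, SE), Wnt10b (−1.11 ± 0.155) and Wnt8b (−1.23 ± 0.239) did not pass (limma adjusted p between 0.0568 and 0.129). Bmp4, a BMP ligand that induces Msx genes, had 309 and 224 normalized counts in wild-type 2 and 3 and 204 and 147 in Arl13b-/- 1 and 3 (−0.47 ± 0.176, SE; limma adjusted p = 0.327). In the 6 libraries 4 of the 17 signals did not overlap and were lower (3.59% of all genes), Wnt2b, Wnt10b, Bmp5 and Bmp7.

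Transcription factors of the dorsal midline and medial cortex lay on both sides of 0. Of 17, 0 passed, 6 did not overlap and were lower (18.1% of all genes) and 6 were higher (29.3%) in the 4 libraries. In the 6 libraries 0 of the 17 separated the groups in either direction (8.26% of all genes). The median in the 4 libraries was 0.07, and at most 0.10 and at least −0.00033 without each library in turn. Emx2 (−1.21 ± 0.166, SE), Dmrta1 (−1.54 ± 0.263) and Dmrta2 (−1.36 ± 0.254), factors of the medial cortex, were below 0 (limma adjusted p between 0.0727 and 0.123). Of 13 response genes of BMP and Wnt signals, 0 passed, 5 did not overlap and were lower (18.1% of all genes) and 1 was higher (29.3%). In the 6 libraries 4 of the 13 did not overlap and were lower (3.59% of all genes) and 0 were higher (4.67%). The median of −0.10 in the 4 libraries changed sign with the library left out, to 0.05 without Arl13b-/- 1 and −0.21 without Arl13b-/- 3. Sp5, a Wnt target, had 375, 465 and 528 normalized counts in the wild-type libraries 1 to 3 and 322, 9.18 and 329 in Arl13b-/- 1 to 3 (−0.52 ± 0.0872, SE; limma adjusted p = 0.103). Rnf43 (−0.53 ± 0.108, SE), Id4 (−0.48 ± 0.166) and Id2 (0.47 ± 0.112) had limma adjusted p between 0.140 and 0.296.

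Markers of other tissues moved with the members, and their part in the results was not tested. Surface ectoderm moved with the choroid plexus genes: all 12 of its 12 markers were lower in each Arl13b-/- library than in each wild-type library (3.59% of all genes). Its summed count was between 1898 and 15320 in wild-type, highest in wild-type 1, and between 211 and 757 in Arl13b-/-, where Krt5 and Krt8 were at 0 in Arl13b-/- 2 and Krt14 at 0 in Arl13b-/- 3. The separation of the groups is therefore not particular to the choroid plexus genes. The retinal pigment epithelium and eye share Ttr, Kcnj13 and Otx2 with the choroid plexus and roof plate. Of 13 genes of these tissues, 6 were tested. In the 6 libraries 2 of them, Dct and Mitf, did not overlap and were lower (3.59% of all genes). In the 4 libraries 3 did not overlap and were lower (18.1%) and 1 was higher (29.3%). The summed count of the 13 was between 645 and 1814 in wild-type and between 411 and 873 in Arl13b-/-. Rpe65, which defines the mature pigment epithelium, was at 0 in 4 libraries and at most 0.731 in the other 2.

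Liver and yolk sac also make Ttr, and their markers were nearly absent. The 9 genes summed to between 23.8 and 49.6 normalized counts in wild-type and between 27.96 and 63.1 in Arl13b-/-, and Alb was at 0 in 5 libraries and at 0.538 in wild-type 1.

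Genes of the midbrain and isthmus included some that were highest in Arl13b-/- 3, as Otx2 was. En2, which defines the midbrain and isthmus, had 779, 2076 and 1051 normalized counts in the wild-type libraries 1 to 3 and 2139, 0 and 3337 in Arl13b-/- 1 to 3, so that Arl13b-/- 3 was the highest library, as for Otx2, Lmx1a and Lmx1b. The summed count of the 10 genes was between 3428 and 5301 in wild-type and between 4111 and 6906 in Arl13b-/-, and 8 of the 10 were at 0 in Arl13b-/- 2, where Nr4a2, also made by cortical neurons, gave 4099. Of the 9 tested, 3 did not overlap and were higher and 2 were lower in the 4 libraries, shares near those of all genes (29.3% and 18.1%). The telencephalon list was lowest in Arl13b-/- 3, and its mean also lay below wild-type 2 and 3 in Arl13b-/- 1 (−0.61) and Arl13b-/- 2 (−1.18). Its median difference in the 4 libraries was −1.41, with 9 of its 10 genes below 0. Of these 10, 5 did not overlap and were lower (18.1% of all genes), 0 were higher (29.3%) and 0 passed.

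Head mesenchyme and meninges moved with Msx1 and Msx2 and were at most a trace in Arl13b-/- 2. Of 14 genes, 8 did not overlap and were lower (18.1% of all genes) and 2 were higher (29.3%) in the 4 libraries, and the summed count was between 27716 and 74634 in wild-type, highest in wild-type 2, and between 653 and 33950 in Arl13b-/-. Col3a1, a collagen, had 1.31 normalized counts in Arl13b-/- 2, and Foxc2 and Foxd1 were at 0 there. Red blood cell genes went in the direction of Otx2 in the 4 libraries: all 7 were higher in both Arl13b-/- libraries (29.3% of all genes). Their summed counts were 57951 and 74818 in wild-type 2 and 3 and 105659 and 293179 in Arl13b-/- 1 and 3. This direction was not particular to them: 7 of 10 genes of dividing cells and 7 of 10 of postmitotic neurons also did not overlap and were higher. A link with Otx2 was not tested.

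**Figure D4:**
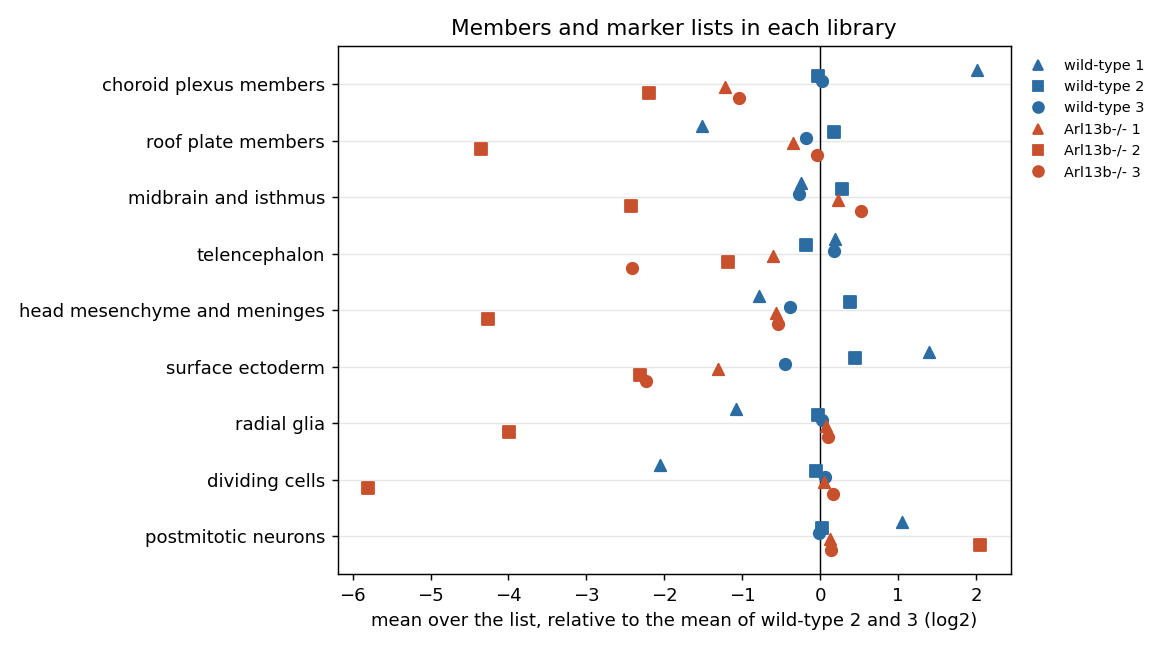
Mean over each list of the variance-stabilised value with the average of the wild-type libraries 2 and 3 set to 0 (horizontal axis, log2 scale), for the members and for marker lists, in each library. The choroid plexus members lie at 2.01 in wild-type 1 and between −1.04 and −2.20 in the 3 Arl13b-/- libraries, the same order of groups as surface ectoderm, while the roof plate members lie at −4.35 in Arl13b-/- 2 and −1.51 in wild-type 1, as dividing cells do at −5.80 and −2.06.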

How the data were processed

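The values that the authors deposited are on a log2 scale, variance-stabilised counts of 6 poly(A) RNA libraries in 1 table. The tools named in the submitters' processing notes are DESeq2, DESeq 1.16.1, Salmon 0.9.1, STAR 2.6.0 and CASAVA, and the build is mm9, with no role or order given. Annotation and filters: not given in the sources used here. Values ran from 5.13, shared by all libraries and taken as a count of 0, to 18.39. The transformation was inverted to normalized counts from that lowest value. The most common low value in each library, between 0.536 and 1.31, was taken as 1 read. Between 69.8% and 79.1% of values under 30 reads lay within 0.05 of a whole number, so no count test was run, and depth limits precision at low counts.

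Genes with a mean over the 6 libraries at least 1 above the lowest value were tested (14249) with limma 3.58.1 in R 4.3.3, with a mean-variance trend, two-sided, with Benjamini-Hochberg adjustment over all of them at 0.05. The script was tested on simulated data with independent normal noise, of the same spread in each library for a given gene. These data held no outlying libraries, so that test cannot tell how wild-type 1 and Arl13b-/- 2 affect the calls. A difference understates the change of low genes. With 2 libraries per group only the limma test is given. Named genes are the members, the 4 of each list with the smallest p in the 4 libraries, the 5 most correlated with Ttr or Lmx1a, and neighbours of members. One gene that this rule names is not reported here. Other genes (Stmn2, Bmp4, Aqp1, En2 and others) were named after their values were seen. The members, the lists and the choice of the 4 libraries were made with earlier results of these data known. Replicate numbers are not stated to pair the libraries. Deviations from the group means correlated at −0.71, −0.71 and 0.62 for numbers 1 to 3. They correlated at 0.71 between wild-type 1 and Arl13b-/- 2, the 2 outlying libraries. Since these 2 weigh most in the deviations, the correlations cannot decide whether the libraries were paired. Alternatives were no filter, a stricter filter (at least 2 above the lowest value), median centring, no trend, inverted counts as log2(count + 1), robust moderation, a replicate block, library weights and leaving out each library. Figures were drawn with matplotlib 3.10.9.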

Additional observations from a re-analysis of the deposited data

How the results depend on the processing

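Over all 6 libraries, 0 genes and 0 members passed in limma as main, without the filter, with the stricter filter, after centring, without the trend, with robust moderation and on inverted counts. Library weights, whose estimation stopped before converging, gave 214 genes and 1 member, Clic6 (−1.34, adjusted p = 0.0308), and turned Otx2, Lmx1a and Lmx1b to 0.49, 0.17 and 0.26. With the replicate block 0 genes and 0 members passed and no difference changed. Since the numbers are not stated to pair the libraries, this is given only here. Leaving out each library gave 0 to 4 genes and 0 members, and differences from −1.01 to −2.51 for Otx2, −0.87 to −1.91 for Lmx1a and −0.19 to −1.03 for Lmx1b, except without Arl13b-/- 2, where they were 0.93, 0.32 and 0.55. In the 4 libraries, 36 genes and 2 members passed, 7 and 0 without the trend and 98 and 1 with robust moderation. Leaving out each library gave 6 to 725 genes and 0 to 4 members, the most without Arl13b-/- 1, and Lmx1a between −0.37 and 0.22. A fit that leaves out 1 of these 4 sets 1 library against 2 and assumes that the lone library varies like the others. The count of roof plate factors that did not overlap and were lower was 0 in the 6 libraries (3.59% of all genes). It was 2 without wild-type 1 and Arl13b-/- 2 (18.1%) and 3 without Arl13b-/- 3 as well (29.6%). It was also 2 without wild-type 1 only, where the share of all genes was not computed. The share of all genes thus rose as libraries were left out. The causes were not tested. Kcne2 and Folr1 gave no value under the stricter filter.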
